A study of Mus musculus with 15 samples.

Results

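The genes described here encode 10 enzymes and helper proteins that make or clear lipid mediators, namely Pla2g4a, Pla2g6, Ptgs1, Ptgs2, Ptgds, Hpgds, Ptges3, Alox5ap, Ltc4s and Ephx2. They were taken as a list of symbols, with no threshold on their values but with earlier results of these data known, and matched by gene ID. All 10 were found among the 55401 genes counted, and all 10 were among the 19536 genes with enough reads to be tested. The mice were female and, by the study's methods, 18 to 20 months old. The study's discussion gives a higher age for the mice of its dendritic spine counts. The study measured RNA in the hippocampus to ask how a daily dose of docosahexaenoic acid (DHA) acts in the Tg2576 model of Alzheimer's disease and in its wild-type (WT) littermates. Tg2576 mice (labelled Tg2576 +/+) carry human APP with the Swedish mutation under the prion promoter, which is active in many cell types, and the WT littermates (labelled Tg2576 -/-) lack the transgene. All 4 groups were dosed through the same 5 weeks. The 4 WT vehicle and 4 Tg2576 vehicle mice received sesame oil, and the 4 WT DHA and 3 Tg2576 DHA mice received DHA at 450 mg/kg. The genetic background strain was not given in the labels.

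Arachidonic acid and DHA are stored in membrane phospholipids and are released by phospholipases A2. Cyclooxygenases convert arachidonic acid into prostaglandin H2, from which terminal synthases make prostaglandins D2, E2 and others, while the lipoxygenase route leads to leukotrienes and epoxygenases give fatty acid epoxides that soluble epoxide hydrolase converts to diols. In the brain, prostaglandin D2 is known for its role in sleep, Ptgs2 is known both as an inflammatory gene and as a gene induced in neurons by synaptic activity, and several enzymes of the leukotriene and prostaglandin routes are best known from microglia and macrophages. RNA levels do not measure enzyme activity or the lipids themselves.

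Reads assigned to genes numbered 17372864 to 46596489 per mouse, with a median of 25645977. The 10 listed markers of hippocampal neurons were present in every mouse, led by Camk2a (mean 4197 CPM, reads relative to library size) and Snap25 (mean 1979 CPM). Markers of 2 neighbouring tissues varied strongly between mice. The summed level of 10 choroid plexus markers ranged from 214 to 6938 CPM, and that of 11 leptomeninges markers from 32.4 to 165 CPM. These sums are given beside the genes they moved with. In RNA from whole tissue, fewer cells of a type and less RNA per cell cannot be told apart. The study ran fear conditioning, with foot shocks, and water maze tests on mice of these 4 groups. It does not state which of the mice tested gave the RNA. Nothing in the labels says more of how the mice were sampled, so the tests measure the spread between these 15 animals.

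Promoter sequences are shown for 3 genes whose levels are central to the comparisons, the cyclooxygenases Ptgs1 and Ptgs2 and the prostaglandin D synthase Hpgds. Each run covers 250 bases before and 30 bases from the RefSeq transcription start in the mouse build GRCm38.p6, read 5′ to 3′ on the gene's strand. Capitals mark the letters GAGGAA, a core read by PU.1 and other ETS factors, and in Ptgs2 also CGTCA, the core of the cyclic AMP response element, and CACGTG, the E-box, which overlap. The Ptgs2 run lies at chr1:150099781-150100060 (+ strand), the Ptgs1 run at chr2:36230176-36230455 (+ strand) and the Hpgds run at chr6:65144701-65144980 (- strand).
Ptgs2: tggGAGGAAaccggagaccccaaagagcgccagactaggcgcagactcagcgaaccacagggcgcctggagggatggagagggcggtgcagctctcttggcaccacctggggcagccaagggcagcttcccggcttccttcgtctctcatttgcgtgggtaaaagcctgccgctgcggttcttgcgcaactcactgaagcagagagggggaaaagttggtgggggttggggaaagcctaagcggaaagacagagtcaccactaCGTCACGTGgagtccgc
Ptgs1: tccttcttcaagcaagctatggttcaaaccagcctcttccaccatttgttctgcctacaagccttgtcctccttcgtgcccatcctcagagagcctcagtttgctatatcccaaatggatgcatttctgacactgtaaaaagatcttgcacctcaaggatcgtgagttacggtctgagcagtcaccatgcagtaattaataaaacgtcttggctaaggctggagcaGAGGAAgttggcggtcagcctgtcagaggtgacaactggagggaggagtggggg
Hpgds: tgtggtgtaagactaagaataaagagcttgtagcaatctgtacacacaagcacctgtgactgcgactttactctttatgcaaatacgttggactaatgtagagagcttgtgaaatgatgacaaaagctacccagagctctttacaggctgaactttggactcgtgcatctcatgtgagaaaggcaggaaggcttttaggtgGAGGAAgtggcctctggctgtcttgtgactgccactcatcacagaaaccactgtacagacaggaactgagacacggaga
Counted from the RefSeq start as 1, GAGGAA began at -49 in Hpgds, at -24 in Ptgs1 and at -247 in Ptgs2, and CGTCA and CACGTG began at 14 and 17 in Ptgs2. Whether transcription starts at these annotated positions in hippocampus was not tested. On either strand, GAGGAA occurred in 26.0% of the 32851 promoter windows of this length, CGTCA in 19.9% and CACGTG in 6.79%. The letters TATAAA, found in 13.1% of windows, were in none of the 3 runs. The motifs were picked after the sequences were read, and a match describes letters only. The upstream end of Hpgds in GENCODE, at position 65144908 of chromosome 6, lies inside its window, so the 2 annotations place its start differently. A RefSeq window was found for 8 of the 10 genes.

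Between genes, levels were compared per kilobase of exon (CPM per kb), as means ± SD over all 15 mice. Ptgds, the lipocalin-type prostaglandin D synthase that is secreted into cerebrospinal fluid, was by far the most abundant, at 268 ± 161 CPM per kb, and ranked above 99.5% of genes tested. Ptges3, a prostaglandin E synthase that is also the Hsp90 co-chaperone p23, followed at 27.9 ± 3.78 CPM per kb. Ephx2, which encodes soluble epoxide hydrolase, stood at 8.54 ± 1.05 and the calcium-independent phospholipase Pla2g6 at 6.61 ± 0.874 CPM per kb. The inducible cyclooxygenase Ptgs2 (3.92 ± 0.942) and the constitutive cyclooxygenase Ptgs1 (3.13 ± 0.401 CPM per kb) were close to each other. The remaining genes were Ltc4s (2.45 ± 0.999), Alox5ap (1.68 ± 0.406), Hpgds (1.29 ± 0.325) and, lowest, the cytosolic phospholipase Pla2g4a (0.354 ± 0.106 CPM per kb).

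The top 2 places and the last place in this order were set apart, since the ranges over mice did not overlap between Ptgds and Ptges3, Ptges3 and Ephx2, or Hpgds and Pla2g4a. The ranges of all other neighbours overlapped. Ephx2 was above Pla2g6 in 14 of 15 mice and Pla2g6 above Ptgs2 in all 15, whereas Ptgs2 was above Ptgs1, Ptgs1 above Ltc4s, and Ltc4s above Alox5ap in 11 of 15 mice each. Read numbers were low for 3 genes, with 18 to 115 reads per mouse for Pla2g4a, 21 to 124 for Ltc4s and 30 to 100 for Alox5ap. The other 7 genes had at least 120 reads in every mouse.

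**Figure D1:**
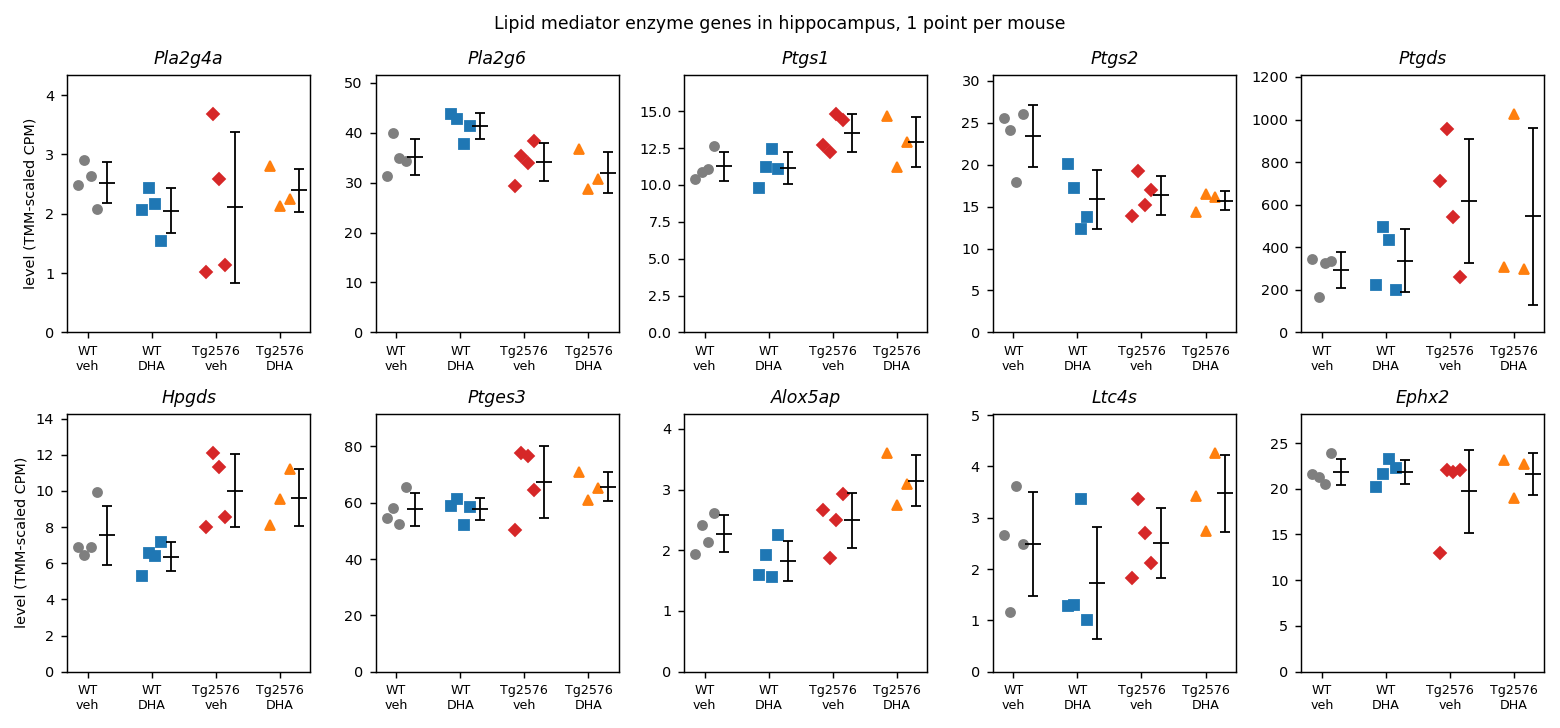
Level of each of the 10 genes in every mouse, as TMM-scaled CPM on linear axes from 0, with the 4 groups on the x axis (veh, vehicle). Points are mice and the black bars are group means ± SD. Ptgs2 had its highest mean in WT vehicle mice (17.97 to 26.1 CPM), Hpgds was higher in Tg2576 DHA than in WT DHA mice without overlap, and Ptgds spread from 165 to 1027 CPM.

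Group differences were tested on the counts of all 19536 genes by edgeR's quasi-likelihood method, two-sided. A gene counts as called where its p before adjustment was under 0.01, the cut-off of the original methods. Adjusted p values are Benjamini-Hochberg values over all genes tested. For counts at an unadjusted p under 0.05, the share of all genes is given only for DHA in Tg2576 mice, the interaction and the mean DHA difference. Such counts elsewhere have no share beside them and cannot be read as an excess. None of the 10 genes had an adjusted p under 0.05 in any of the 7 comparisons by edgeR, and the smallest was 0.132 (Hpgds, mean genotype difference), where DESeq2 gave 0.0227. Of all genes tested, 0.0154% had one for genotype under vehicle, 0.00512% for genotype under DHA, 0.205% for the mean genotype difference and 0% in each of the other 4 comparisons. Exact permutation tests, two-sided, on log2 CPM cannot go below 0.0286 for 4 against 4 mice or 0.0571 for 4 against 3.

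In Tg2576 vehicle mice compared with WT vehicle mice, 1 of the 10 genes was called (Ptgs2, lower), beside 3.09% of all genes tested. In Tg2576 DHA compared with WT DHA mice, 3 were called (Hpgds and Alox5ap higher, Pla2g6 lower), beside 1.75% of all genes. For DHA against vehicle in WT mice 1 was called (Ptgs2, lower), beside 1.38% of all genes. For DHA against vehicle in Tg2576 mice 0 of 10 were called by edgeR, and 0 had an unadjusted p under 0.05, beside 0.353% and 3.16% of all genes. DESeq2 and limma-voom also called 0 there. In the interaction 0 were called by edgeR, DESeq2 and limma-voom, beside 0.829% of all genes, and 2 had an unadjusted p under 0.05, beside 5.12% of all genes. Averaged over both treatments, the genotype difference was called for 2 genes (Hpgds and Alox5ap, both higher), beside 3.85% of all genes. The mean DHA difference was called for 0 by edgeR and limma-voom and for 1 by DESeq2, beside 0.87% of all genes, and 1 had an unadjusted p under 0.05 (Ptgs2), beside 3.78% of all genes. Groups did not overlap for 3 of the 10 genes between the genotypes under DHA (8.56% of all genes) and for 0 of 10 between the genotypes under vehicle (5.16%), with DHA in WT (5.02%) or with DHA in Tg2576 mice (3.21%). All 7 Tg2576 mice against all 8 WT mice overlapped for each of the 10 genes, while 0.369% of all genes did not overlap. The median log2 fold change of the 10 genes was 0.07 for genotype under vehicle, 0.22 for genotype under DHA, -0.13 for DHA in WT and -0.05 for DHA in Tg2576 mice, while that of all genes lay between -0.01 and 0.00.

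**Figure D2:**
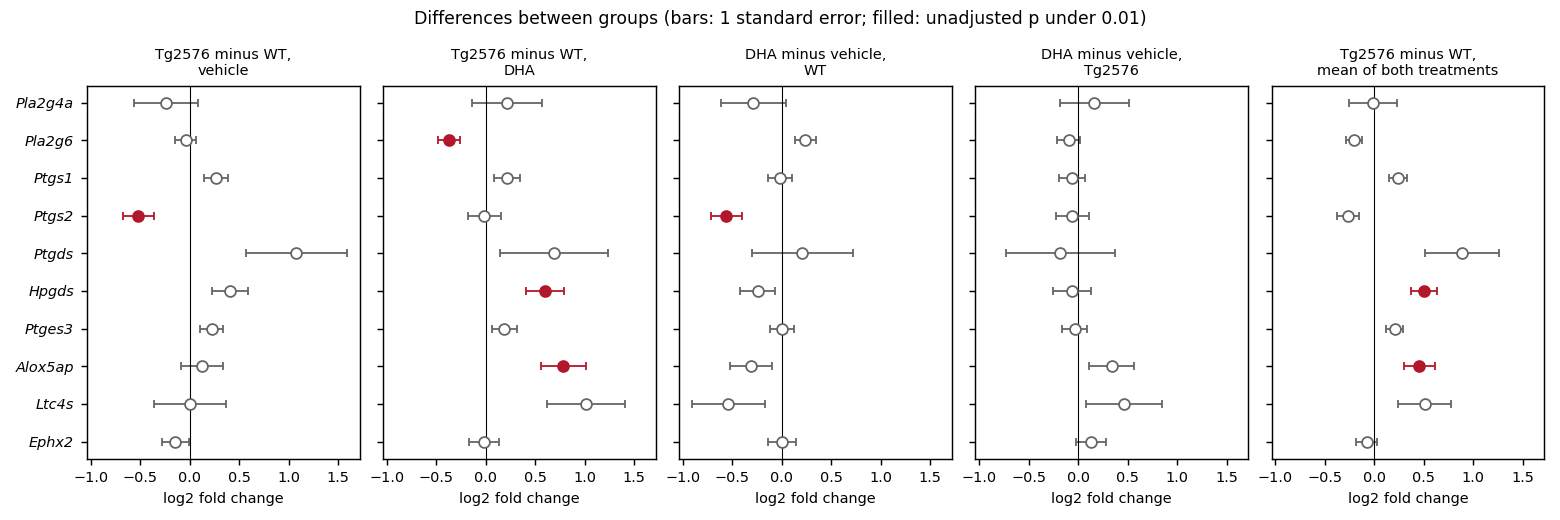
Log2 fold change of the 10 genes in 5 comparisons, with bars of 1 standard error and filled points for an unadjusted p under 0.01. Ptgs2 stands at -0.52 and -0.56 in the comparisons that share the WT vehicle mice, and no point is filled for DHA in Tg2576 mice.

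Ptgs2 (chr1:150100031-150108227, + strand, GRCm38) encodes the inducible cyclooxygenase COX-2. Its levels in WT vehicle mice 1 to 4 were 25.6, 24.1, 17.97 and 26.1 CPM. In WT DHA mice 1 to 4 they were 20.1, 17.2, 12.3 and 13.8 CPM. In Tg2576 vehicle mice 1 to 4 they were 13.9, 19.2, 15.2 and 17.0 CPM, and in the 3 Tg2576 DHA mice 14.4, 16.5 and 16.2 CPM. WT vehicle mice 1, 2 and 4 lay above every other mouse, and WT vehicle mouse 3 lay within the range of the other groups.

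Ptgs2 was lower with DHA in WT mice by a log2 fold change of -0.56 (SE 0.155, adjusted p = 0.540, edgeR; exact permutation p = 0.0571). This call held in all 23 alternative fits. Ptgs2 was also lower in Tg2576 vehicle than in WT vehicle mice, by -0.52 on the log2 scale (SE 0.155, adjusted p = 0.250, edgeR; exact permutation p = 0.0571). This second call was lost without WT vehicle mouse 1, 2 or 4 or Tg2576 vehicle mouse 1 or 3. Both comparisons use the same 4 WT vehicle mice, so they are not independent. Among Tg2576 mice the log2 difference with DHA was -0.06 (SE 0.168), and between the genotypes under DHA it was -0.02 (SE 0.168). The difference between the DHA responses of the genotypes, the interaction, was 0.50 (SE 0.228, adjusted p = 0.845, edgeR), which was not called.

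Because Ptgs2 is also an activity-induced gene, it was set beside 11 other immediate early genes such as Fos, Arc and Egr1. Their summed level was 441 to 741 CPM in WT vehicle, 611 to 927 CPM in WT DHA, 465 to 1176 CPM in Tg2576 vehicle and 460 to 630 CPM in Tg2576 DHA mice. Tg2576 vehicle mice 1 to 4 had sums of 700, 1176, 465 and 599 CPM, so only mouse 2 lay above the WT vehicle range. With DHA in WT mice, 10 of the 11 had a log2 fold change above 0, with a median of 0.37 and 0 called, and in Tg2576 vehicle against WT vehicle mice all 11 had one above 0, with a median of 0.30 and 0 called. In both comparisons 0 of the 11 had an unadjusted p under 0.05 by edgeR. Apart from 1 gene with DHA in WT mice, their signs were opposite to that of Ptgs2 in these 2 comparisons, which share the WT vehicle mice. Between the genotypes under DHA 0 of the 11 were above 0 (median -0.22, 0 called), where Ptgs2 differed by -0.02. With DHA in Tg2576 mice 1 was above 0 (median -0.37, 0 called), where Ptgs2 differed by -0.06. In the interaction 0 were above 0 (median -0.57, 0 called), against 0.50 for Ptgs2. The part of neuronal activity in the Ptgs2 values was not tested. The 2 genes whose log2 CPM followed Ptgs2 most closely over the 15 mice were Ttf1 (Pearson r = 0.900) and Btbd3 (r = 0.895).

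**Figure D3:**
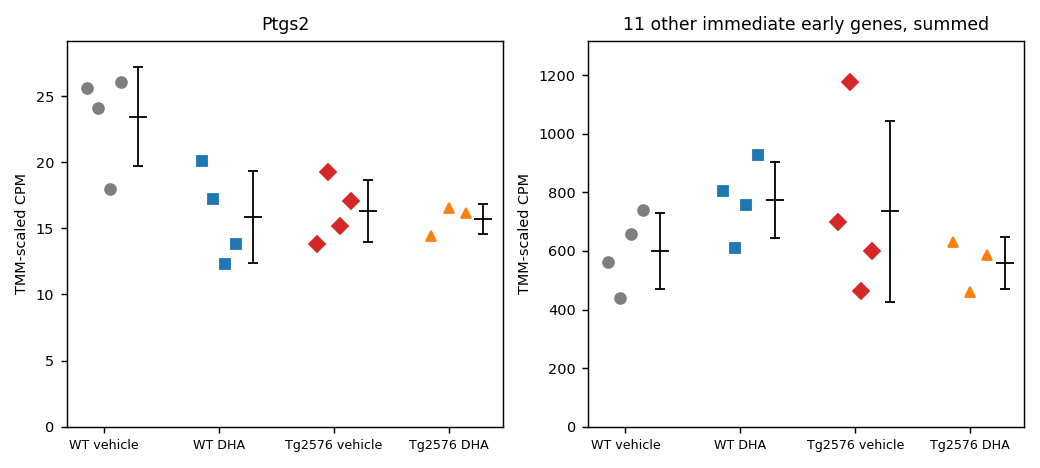
Ptgs2 (left) and the summed level of 11 other immediate early genes (right) in every mouse, as TMM-scaled CPM, by group. Bars are group means ± SD. Ptgs2 has its highest mean in WT vehicle mice, while the summed immediate early genes are not, at 441 to 741 CPM there against 611 to 927 CPM in WT DHA mice.

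Ptgs1 (chr2:36230426-36252272, + strand) encodes the constitutive cyclooxygenase COX-1, known in brain from microglia. It ranged from 9.77 to 12.7 CPM (median 11.1) over the 8 WT mice and from 11.2 to 14.8 CPM (median 12.9) over the 7 Tg2576 mice. Of the Tg2576 mice, 5 lay above every WT mouse. The mean genotype difference was 0.24 on the log2 scale (SE 0.0898, adjusted p = 0.302, edgeR), short of the threshold. It passed with DESeq2 (0.25), with library sizes without TMM factors (0.27) and in 2 of the 15 fits without 1 mouse. Ptgs1 showed no DHA difference past the threshold, with -0.02 (SE 0.123) in WT and -0.07 (SE 0.132) in Tg2576 mice. Of its exon bases, 3.81% overlap a gene on the other strand. Its closest genes over mice were Slc11a1 (r = 0.909), a metal transporter of phagocytes, and Cox4i2 (r = 0.900).

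Hpgds (chr6:65117293-65144908, - strand) encodes the hematopoietic prostaglandin D synthase, which is known in brain from microglia. WT vehicle mice 1 to 4 had 6.89, 6.43, 6.89 and 9.93 CPM and WT DHA mice 1 to 4 had 5.28, 6.56, 6.41 and 7.20 CPM. Tg2576 vehicle mice 1 to 4 had 8.004, 12.1, 11.3 and 8.58 CPM and the Tg2576 DHA mice 8.10, 9.55 and 11.2 CPM. All 7 Tg2576 mice lay above 7 of the 8 WT mice, the exception being WT vehicle mouse 4.

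Averaged over treatments, Hpgds was higher in Tg2576 mice by 0.50 on the log2 scale (SE 0.131, adjusted p = 0.132, edgeR). The call held in all 22 alternative fits of this difference, which gave log2 values of 0.44 to 0.58 and adjusted p values from 0.0227 (DESeq2) to 0.268. DESeq2 was the only one of them with an adjusted p under 0.05. Under DHA the difference was 0.60 (SE 0.192, adjusted p = 0.560, edgeR) with no overlap between the groups (exact permutation p = 0.0571), and under vehicle 0.41 (SE 0.178, adjusted p = 0.419). The call under DHA was lost without any of WT DHA mice 1, 2 and 3 or Tg2576 DHA mice 2 and 3. DHA itself gave -0.25 (SE 0.180) in WT and -0.06 (SE 0.191) in Tg2576 mice, neither called.

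Alox5ap (chr5:149264767-149288153, + strand) encodes FLAP, the membrane protein that presents arachidonic acid to 5-lipoxygenase, and is known from microglia and other myeloid cells. WT vehicle mice 1 to 4 had 1.94, 2.42, 2.13 and 2.62 CPM and WT DHA mice 1 to 4 had 1.58, 1.92, 1.55 and 2.25 CPM. Tg2576 vehicle mice 1 to 4 had 2.67, 1.87, 2.49 and 2.93 CPM and the Tg2576 DHA mice 3.599, 2.75 and 3.10 CPM. The Tg2576 DHA mice did not overlap with the WT DHA mice, whereas the vehicle groups overlapped.

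Under DHA, Alox5ap was higher in Tg2576 mice by 0.78 on the log2 scale (SE 0.228, adjusted p = 0.536, edgeR; exact permutation p = 0.0571). Under vehicle the difference was 0.13 (SE 0.212, adjusted p = 0.867, edgeR). The test of the difference between these, the interaction, gave 0.65 (SE 0.312, adjusted p = 0.845, edgeR), so the genotype difference was not shown to depend on DHA. The mean genotype difference was 0.46 (SE 0.156, adjusted p = 0.255, edgeR). The call under DHA was lost without WT DHA mouse 1 or 3 or Tg2576 DHA mouse 1. The mean genotype call held in 4 of the 15 fits without 1 mouse. Of the exon bases of Alox5ap, 13.31% overlap a gene on the other strand. The counting used no strand and left out reads that fell in several genes, so reads there were left out. Alox5, the 5-lipoxygenase itself and a gene added here after its values were seen, had 22 to 78 reads per mouse and a mean genotype difference of 0.35 (SE 0.223, adjusted p = 0.593, edgeR).

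Markers of myeloid cells moved in the same direction as Hpgds, Alox5ap and Ptgs1. The summed level of 12 microglia markers was 393 to 554 CPM in WT and 486 to 730 CPM in Tg2576 mice. In the mean genotype difference all 12 had a log2 fold change above 0, 6 of them called, with a median of 0.33 on the log2 scale. Of all genes tested, 3.85% were called there, 1.75% under DHA, 3.09% under vehicle and 0.829% in the interaction. Under DHA, where Hpgds and Alox5ap were called, all 12 were above 0 and 5 were called (median 0.47), and under vehicle 9 were above 0 and 1 was called (median 0.21). In the interaction 1 of the 12 was called. Of 12 markers of plaque-associated microglia, 11 had one above 0 and 7 were called, with a median of 0.65, and their summed level was 237 to 298 CPM in WT and 235 to 399 CPM in Tg2576 mice. Of these, 4 were called under DHA (median 0.66) and 3 under vehicle (median 0.48). The 7 tested markers of border macrophages all had one above 0, with 0 called by edgeR and 3 at an unadjusted p under 0.05, and the 8 listed markers together reached 3.74 to 14.3 CPM per mouse, with Pf4, Ms4a7 and Clec4n at 0 reads in at least 1 mouse. Of 8 listed markers of blood granulocytes and platelets, 4 had enough reads to be tested. Under DHA all 4 had a log2 fold change above 0, with a median of 1.38 and 1 called, and the sums of the 8 were 3.43 to 6.36 CPM in WT DHA and 4.53 to 12.5 CPM in Tg2576 DHA mice. Under vehicle 2 of the 4 had one above 0, with a median of -0.07, 0 called by edgeR and 0 at an unadjusted p under 0.05. S100a8, S100a9, Retnlg, Camp, Ngp and Ppbp were at 0 reads in at least 1 mouse. The part of these cells in the differences of Hpgds, Alox5ap and Ptgs1 was not tested.

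Pla2g6 (chr15:79286228-79328390, - strand) encodes the calcium-independent phospholipase A2 that releases DHA, among other fatty acids, from phospholipids. WT vehicle mice 1 to 4 had 31.3, 39.9, 35.0 and 34.4 CPM and WT DHA mice 1 to 4 had 43.8, 42.7, 37.8 and 41.3 CPM. Tg2576 vehicle mice 1 to 4 had 29.2, 35.3, 33.9 and 38.3 CPM and the Tg2576 DHA mice 36.7, 28.7 and 30.7 CPM. The WT DHA mice had the highest mean, and the Tg2576 DHA mice lay below all of them.

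Under DHA, Pla2g6 was lower in Tg2576 mice by -0.37 on the log2 scale (SE 0.114, adjusted p = 0.548, edgeR; exact permutation p = 0.0571). The difference under vehicle was -0.04 (SE 0.105). With DHA, Pla2g6 differed by 0.24 (SE 0.105) in WT and by -0.10 (SE 0.114) in Tg2576 mice, and the interaction was -0.33 (SE 0.155, adjusted p = 0.845, edgeR). None of the last 3 was called. The call under DHA was lost without WT DHA mouse 1 or 2 or Tg2576 DHA mouse 2 or 3, and when replicate number entered the fit as a block (log2 fold change -0.35). Markers of hippocampal neurons were mostly lower in Tg2576 mice under both treatments. Under DHA, 8 of the 10 had a log2 fold change below 0, with a median of -0.16, 2 called lower and 5 at an unadjusted p under 0.05. Their sums were 8910.5 to 10617 CPM in WT DHA and 7595 to 8885 CPM in Tg2576 DHA mice. Under vehicle, where Pla2g6 differed by -0.04, 2 of the 10 were above 0 (median -0.13). There 2 were called lower and 3 had an unadjusted p under 0.05. With DHA in WT mice, where Pla2g6 differed by 0.24, 5 were above 0 (median 0.02), with 1 called higher and 1 called lower. In the mean genotype difference 9 of the 10 were below 0 and 4 were called lower (median -0.17). Shares called over all genes were 1.75% under DHA, 3.09% under vehicle, 1.38% with DHA in WT mice and 3.85% in the mean genotype difference. The part of neurons in the Pla2g6 difference was not tested.

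Pla2g4a, the calcium-dependent cytosolic phospholipase that releases arachidonic acid, had 1.02 to 3.68 CPM per mouse, or 18 to 115 reads. The Tg2576 vehicle mice alone covered this whole range, with 1.02, 3.68, 2.58 and 1.14 CPM. No comparison was called, and the mean genotype difference was -0.01 (SE 0.240) on the log2 scale.

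Ptgds (chr2:25466709-25470046, - strand) had 344, 165, 324 and 337 CPM in WT vehicle mice 1 to 4 and 221, 494, 434 and 200 CPM in WT DHA mice 1 to 4. It had 713, 957, 541 and 262 CPM in Tg2576 vehicle mice 1 to 4 and 310, 1027 and 299 CPM in the Tg2576 DHA mice. Of the Tg2576 mice, 4 lay above every WT mouse and the other 3 lay within the WT range. The mean genotype difference was 0.89 on the log2 scale (SE 0.373, adjusted p = 0.390, edgeR), which was not called, and without 1 mouse it ranged from 0.47 to 1.03. The spread within groups, an SD of 0.74 in log2 CPM, was larger than that of 89.9% of genes tested, beside a median of 0.25.

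Ptgds is known from leptomeningeal cells, choroid plexus and oligodendrocytes. The mice with the highest Ptgds, Tg2576 DHA mouse 2 (1027 CPM) and Tg2576 vehicle mouse 2 (957 CPM), also had the highest sums of the 11 leptomeninges markers, at 165 and 162 CPM. WT vehicle mouse 2 had the lowest Ptgds and a leptomeninges sum of 35.4 CPM. Tg2576 vehicle mouse 1 stood off this pattern, with 713 CPM of Ptgds and a sum of 58.4 CPM, as did Tg2576 DHA mouse 3 with 299 and 104 CPM. The sums of the border macrophage markers moved with Ptgds too. The 4 mice with the highest Ptgds (1027, 957, 713 and 541 CPM), all Tg2576, had the 4 highest of these sums, at 14.3, 10.4, 8.004 and 7.74 CPM. The oligodendrocyte sums, of 5596 to 8578 CPM over all mice, did not follow Ptgds in this way, with 5596 CPM in the mouse at 1027 CPM of Ptgds and 5893 CPM in that at 713 CPM. The choroid plexus sums were 4196 and 4365 CPM in the mice at 1027 and 957 CPM of Ptgds. Tg2576 DHA mice 1 and 3, at 310 and 299 CPM of Ptgds, had 6419 and 4340 CPM. Tg2576 vehicle mouse 3, at 541 CPM of Ptgds, had 707 CPM. The closest genes to Ptgds over the 15 mice were Gjb2 (r = 0.918), a gap junction gene known from leptomeninges, and Fmod (r = 0.916), a gene of the extracellular matrix. All 11 leptomeninges markers had a mean genotype difference above 0, with a median of 0.61, 0 called by edgeR and 2 at an unadjusted p under 0.05. The part of leptomeningeal tissue, choroid plexus, oligodendrocytes and border macrophages in the Ptgds values was not tested.

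**Figure D4:**
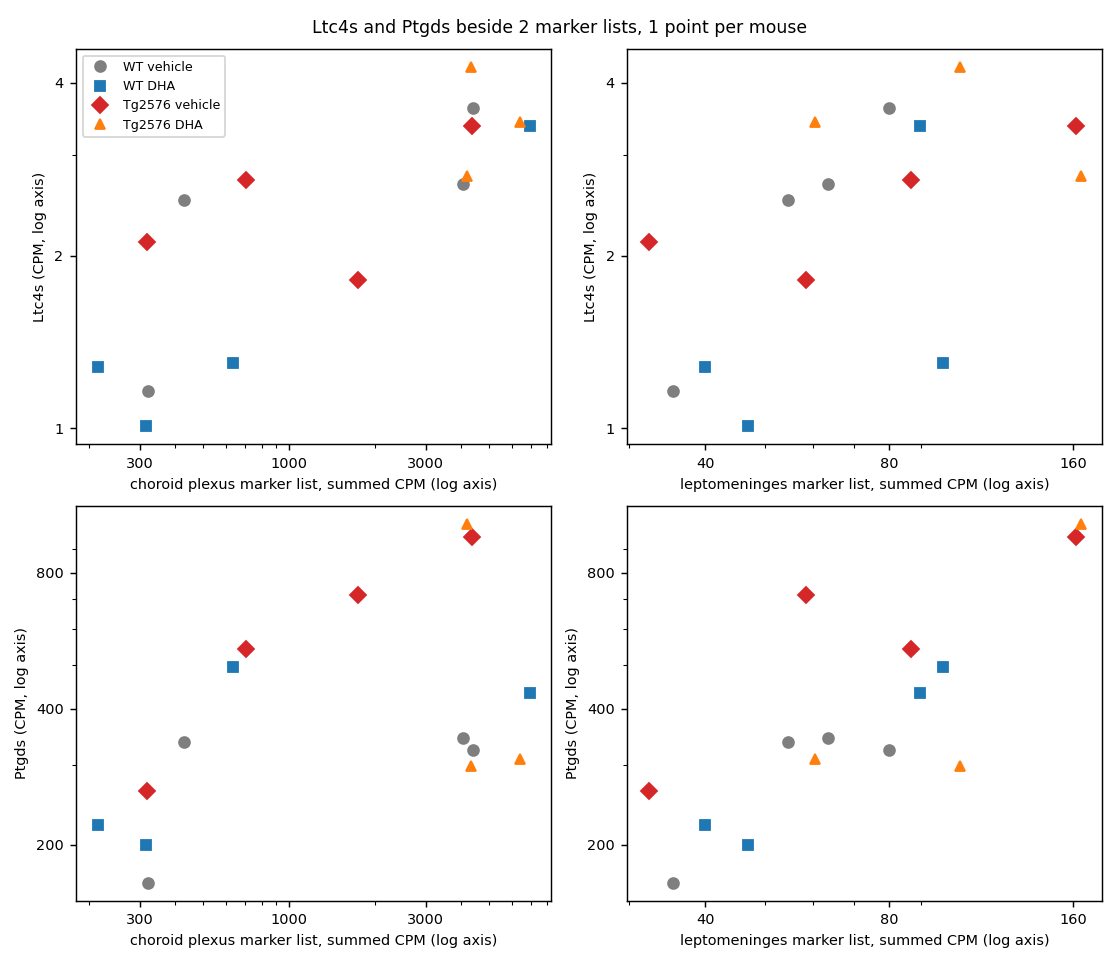
Ltc4s (top) and Ptgds (bottom) in every mouse against the summed level of 10 choroid plexus markers (left) and 11 leptomeninges markers (right), all in TMM-scaled CPM on log axes. Colours and shapes give the 4 groups. The 2 mice with the highest Ptgds (1027 and 957 CPM) are those with the highest leptomeninges sums, and the 7 mice with choroid plexus sums of 4072 to 6938 CPM have Ltc4s between 2.67 and 4.26 CPM. Tg2576 vehicle mouse 3, with a choroid plexus sum of 707 CPM, lies in the same Ltc4s range at 2.71 CPM.

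Ltc4s (chr11:50236461-50238616, - strand) encodes leukotriene C4 synthase, which joins leukotriene A4 to glutathione. WT vehicle mice 1 to 4 had 2.67, 1.16, 3.62 and 2.50 CPM and WT DHA mice 1 to 4 had 1.28, 1.30, 3.36 and 1.01 CPM. Tg2576 vehicle mice 1 to 4 had 1.82, 3.36, 2.71 and 2.11 CPM and the Tg2576 DHA mice 3.42, 2.75 and 4.26 CPM. WT DHA mouse 3 stood apart from the other 3 of its group and within the range of the Tg2576 DHA mice.

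No comparison was called for Ltc4s, and the largest difference, between the genotypes under DHA, was 1.01 on the log2 scale (SE 0.395, adjusted p = 0.651, edgeR). It was called by limma-voom (1.16) and without the filter on low counts (1.01). Without WT DHA mouse 3 it was 1.53, the DHA difference in WT mice was -1.06 and the interaction was 1.52, all past the threshold. That mouse also had the highest choroid plexus sum, 6938 CPM, against 214 to 635 CPM in the other WT DHA mice. The Tg2576 DHA mice had sums of 4196 to 6419 CPM. Tg2576 vehicle mouse 3 stood off this pattern, with a sum of 707 CPM and 2.71 CPM of Ltc4s, as did WT vehicle mouse 4 with 427 and 2.50 CPM. The part of choroid plexus tissue in the Ltc4s values was not tested. Of the exon bases of Ltc4s, 26.43% overlap a gene on the other strand, and reads there were left out, as for Alox5ap.

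Ptges3 ranged from 52.2 to 65.6 CPM over the WT mice and from 50.4 to 77.6 CPM over the Tg2576 mice. The mean genotype difference was 0.21 on the log2 scale (SE 0.0868, adjusted p = 0.369, edgeR), and it passed the threshold without Tg2576 vehicle mouse 1 (log2 fold change 0.26). The DHA differences were 0.00 (SE 0.118) in WT and -0.04 (SE 0.128) in Tg2576 mice. Ptges3 has 1 pseudogene by name, and reads that mapped to both were left out of the counts. Copies under other names were not searched for.

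Ephx2, whose product converts fatty acid epoxides, those of DHA included, to diols, showed no called difference. Levels were 20.2 to 23.9 CPM in the 8 WT mice, 18.9 to 23.2 CPM in Tg2576 DHA mice and 21.8 to 22.1 CPM in Tg2576 vehicle mice 2, 3 and 4. Tg2576 vehicle mouse 1, the library with the fewest reads, was alone at 12.9 CPM. The DHA differences were 0.00 (SE 0.139) in WT and 0.13 (SE 0.150) in Tg2576 mice, and the mean genotype difference was -0.08 (SE 0.103).

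The genes that most resembled the others, as the highest Pearson r of log2 CPM among all genes tested over the same 15 libraries, were Phactr3 (r = 0.900) for Pla2g6, Cnn3 (0.898) and Lair1 (0.893), an inhibitory receptor of immune cells, for Hpgds, and Trappc13 (0.928) for Ptges3. For Ltc4s it was Armc2 (0.911) and for Pla2g4a A930001C03Rik (0.892). Alox5ap had the weakest best match, Man2b1 (0.809). For Ephx2 it was Srbd1 (0.936), but the rank correlation was 0.575, and Tg2576 vehicle mouse 1 lay far from the other mice in Ephx2.

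The rest of the pathway was described from a list of 106 genes of fatty acid release, synthesis, breakdown and reception, of which 104 were matched and 71 had enough reads to be tested. In Tg2576 vehicle against WT vehicle mice 3 were called higher and 2 lower, beside 3.09% of all genes tested. For DHA in WT mice 1 was called lower, beside 1.38% of all genes. For genotype under DHA 0 were called, beside 1.75% of all genes (8 had an unadjusted p under 0.05, and 1 was called by DESeq2 and by limma-voom). For DHA in Tg2576 mice 0 were called, beside 0.353% of all genes (0 had an unadjusted p under 0.05, and 0 were called by DESeq2 and by limma-voom). The interaction was called for 1 (Ptgr2, higher), beside 0.829% of all genes. The mean genotype difference was called for 3 higher and 1 lower, beside 3.85% of all genes, and the mean DHA difference for 1 higher and 1 lower, beside 0.87%. None of these had an adjusted p under 0.05.

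Among the genes of fatty acid release, 2 of 20 tested were called in the mean genotype difference. Prdx6, a peroxiredoxin with phospholipase A2 activity, was higher in Tg2576 mice by 0.26 on the log2 scale (SE 0.0704, adjusted p = 0.155, edgeR). Its means were 204 ± 26.8 CPM (SD, n = 4) in WT vehicle and 262 ± 26.1 CPM (n = 4) in Tg2576 vehicle mice, a called log2 difference of 0.36 (SE 0.0960). Under DHA they were 220.5 ± 13.01 CPM (n = 4) in WT and 244 ± 13.2 CPM (n = 3) in Tg2576 mice, and the difference of 0.15 (SE 0.103) was not called. Pla2g4b, a group IV phospholipase, was lower by -0.73 (SE 0.235, adjusted p = 0.225, edgeR), at 18 to 82 reads per mouse. The monoacylglycerol lipases Abhd12 and Mgll were the most abundant genes of this role and were not called in any comparison.

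Of 8 tested prostanoid synthases and related reductases, 0 were called in any of the 7 comparisons by edgeR, and 5 of their 56 gene and comparison pairs had an unadjusted p under 0.05. The most abundant were Fam213b, a prostaglandin F synthase, with group means of 56.2 to 71.6 CPM, and Cbr1, a carbonyl reductase, with 54.1 to 60.9 CPM. Among 10 tested lipoxygenase and leukotriene genes, Mgst3, a microsomal glutathione transferase with leukotriene C4 synthase activity, was called in Tg2576 vehicle against WT vehicle mice. It was higher by 0.41 on the log2 scale (SE 0.119, adjusted p = 0.224, edgeR), with group means of 69.6 and 52.3 CPM. Under DHA the means were 63.3 CPM in Tg2576 and 66.4 CPM in WT mice, and the difference was -0.07 (SE 0.129). WT vehicle mice had the lowest mean, and the log2 difference with DHA in WT mice was 0.34 (SE 0.120) and the interaction -0.48 (SE 0.176), neither called. Lta4h, the leukotriene A4 hydrolase, was even, with group means of 38.8 to 39.98 CPM, and was not called.

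None of the 6 tested epoxygenase and epoxide hydrolase genes was called by edgeR, and 2 of their 42 gene and comparison pairs had an unadjusted p under 0.05. Among them were Ephx4 (32.2 to 35.7 CPM over group means) and the microsomal hydrolase Ephx1 (29.2 to 33.7 CPM). Of the 13 breakdown and transport genes, the most abundant, Zadh2 and Cyp4f15, were not called, as was the case for the receptor-associated Ptgfrn. Hpgd, the 15-hydroxyprostaglandin dehydrogenase that inactivates prostaglandins, was higher in Tg2576 mice on average, by 0.49 on the log2 scale (SE 0.149, adjusted p = 0.199, edgeR). Ptgr2, a prostaglandin reductase, was lower in Tg2576 vehicle than in WT vehicle mice, at 14.4 against 19.2 CPM (log2 -0.42, SE 0.126, adjusted p = 0.261, edgeR). Under DHA the difference was 0.16 (SE 0.136), not called, and the interaction of 0.57 (SE 0.185, adjusted p = 0.845, edgeR) was called. Cyp4f16, a cytochrome P450 of a family that hydroxylates leukotriene B4, was lower with DHA over both genotypes, by -0.32 (SE 0.102, adjusted p = 0.9998, edgeR).

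Among 14 tested receptors, Gpr37, an orphan receptor of oligodendrocytes for which a DHA-derived ligand has been proposed, was lower in Tg2576 vehicle mice (69.2 ± 14.8 CPM, SD, n = 4) and in WT DHA mice (74.3 ± 8.21, n = 4) than in WT vehicle mice (99.1 ± 6.10, n = 4). The log2 fold changes were -0.52 (SE 0.127, adjusted p = 0.170) and -0.42 (SE 0.127, adjusted p = 0.600, both edgeR), against the same WT vehicle mice. In Tg2576 mice the DHA difference was 0.12 (SE 0.137), and the interaction was 0.54 (SE 0.187), which was not called. Of the 10 oligodendrocyte markers, 7 had a log2 fold change below 0 in Tg2576 vehicle against WT vehicle mice and all 10 with DHA in WT mice, with medians of -0.21 in both, 0 called by edgeR and 0 at an unadjusted p under 0.05. The part of oligodendrocytes in the Gpr37 values was not tested. Ptger3, the EP3 receptor for prostaglandin E2, was higher with DHA over both genotypes by 0.61 (SE 0.203, adjusted p = 0.9998, edgeR), at 28 to 138 reads per mouse. Cysltr2, a cysteinyl leukotriene receptor, was called higher in Tg2576 mice but had only 2 to 18 reads per mouse.

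**Figure D5:**
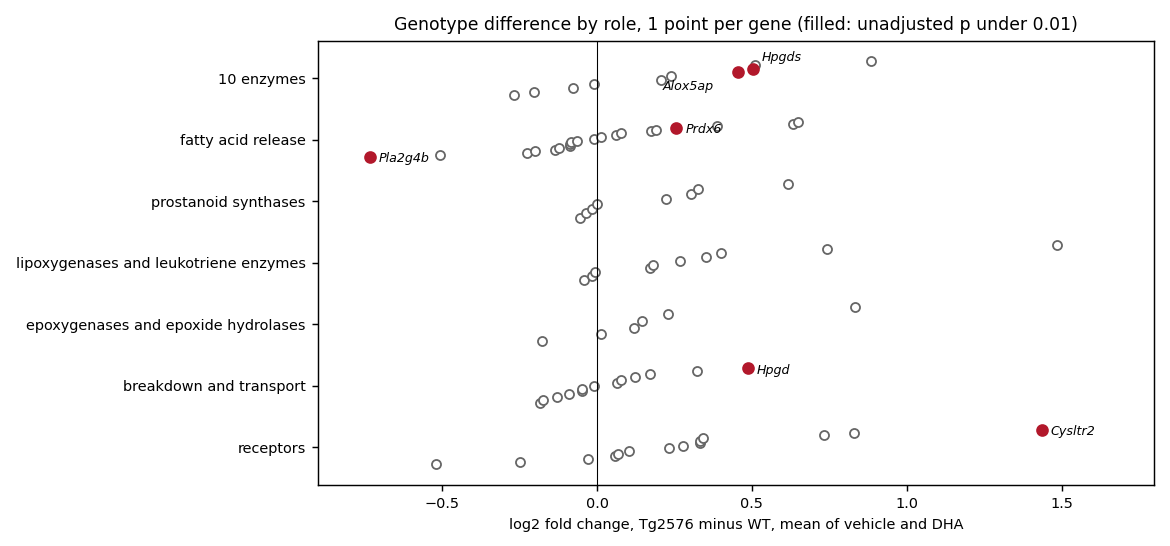
Mean genotype difference (log2 fold change, Tg2576 minus WT over both treatments) of the 10 enzyme genes and of the 71 other tested pathway genes by role. Each point is a gene, and filled points have an unadjusted p under 0.01. Hpgds (0.50) and Alox5ap (0.46) are filled in the top line, and 4 genes are filled below it.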

How the data were processed

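Hippocampal RNA of 15 mice was sequenced, and the deposited values are raw read counts per gene, made by the authors with STAR 2.6.1c and featureCounts 1.6.0 on GENCODE M25 (GRCm38) without a strand setting. Reads mapping to several places or genes were left out, which lowers genes that overlap another. The study's methods name the TruSeq Stranded mRNA kit and the labels a SMARTER kit. Symbols came from GENCODE M21 by gene ID (55141 of 55401 matched). Sequences are from RefSeq.

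Counts were scaled with TMM factors (0.961 to 1.03) and fitted with edgeR 4.0.16 in R 4.3.3, with a filterByExpr minimum count of 10, robust quasi-likelihood dispersions and 1 coefficient per group over all 15 mice. Each standard error is the size of the log2 fold change over the root of its F statistic. Log2 CPM used a prior count of 2. The workflow was tested on simulated data. Replicate numbers were not treated as pairs in the main fit. Alternatives were DESeq2 1.42.0, limma-voom 3.58.1, no TMM factors, other filters, no robust option, a replicate block, only the 2 groups compared, and each mouse left out. The 10 genes and the gene lists were chosen with earlier results of these data known. Named pathway genes were those called in any comparison and the 2 most abundant per role, and for each of the 10 genes the 2 genes of highest Pearson r over mice were found. Figures were drawn with matplotlib 3.10.9.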

Additional observations from a re-analysis of the deposited data

Results flagged for a closer look

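In 87 groups of 4 mice checked, over 29 named genes, 7 held a mouse whose gap to the nearest other exceeded Dixon's 95% critical value for 4 samples, while chance gives about 1 in 20. Each is given as the gap divided by the range. For Ptgds in WT vehicle mice the ratio was 0.889, from mouse 2 at 165 CPM against 324 to 344 CPM. For Hpgds in WT vehicle mice it was 0.868, from mouse 4 at 9.93 CPM against 6.43 to 6.89 CPM. For Ltc4s in WT DHA mice it was 0.876, from mouse 3 at 3.36 CPM against 1.01 to 1.30 CPM. For Ephx2 in Tg2576 vehicle mice it was 0.974, from mouse 1 at 12.9 CPM against 21.8 to 22.1 CPM. For Prdx6 in the same group it was 0.866, from mouse 1 at 223 CPM against 272 to 279 CPM. For Pla2g4b it was 0.849 and for Ptgr2 0.895, both from Tg2576 vehicle mouse 4, at 1.75 CPM against 1.02 to 1.13 CPM and at 10.4 CPM against 15.5 to 16.1 CPM.

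The interaction of Ptgr2 was 0.57 on the log2 scale (SE 0.185, adjusted p = 0.845, edgeR), which was called before but not after adjustment. It was the 1 call among 71 pathway genes, beside 0.829% of all genes. The number of such calls ran from 0 to 5 without 1 mouse. The DHA differences of Ptgr2, -0.29 (SE 0.126) in WT and 0.28 (SE 0.136) in Tg2576 mice, were not called. Tg2576 vehicle mouse 4, flagged above for this gene, enters the interaction.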

How the results depend on the processing

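Over 1580 alternative values for the 70 pairs of the 10 genes and 7 comparisons, 1529 kept their call or its absence, 30 lost a call, 21 gained one and 0 reversed a called direction. Without the filter on low counts, 1 of the 10 genes rather than 2 was called in the mean genotype difference (Hpgds), and 1 rather than 0 in the mean DHA difference (Ptgs2). DESeq2 also called 1 there. The number of gene and comparison pairs of 2 groups without overlap was 3, and 5 without TMM factors. Leaving out each mouse in turn, the genes called numbered 0 to 1 for genotype under vehicle, 0 to 3 for genotype under DHA, 1 to 2 for DHA in WT, 0 to 0 for DHA in Tg2576, 0 to 1 for the interaction, 1 to 3 for the mean genotype difference and 0 to 1 for the mean DHA difference. The other pathway genes called in any comparison numbered 9, and 7 to 13 without 1 mouse. The replicate block called 2 rather than 3 of the 10 genes for genotype under DHA, since Pla2g6 lost its call. The correlation of deviations passed 0.1 in 4 of 21 same-numbered pairs (median 0.0117), and the median over the 63 other pairs was 0.00305. Such correlations cannot show whether mice of the same number were handled together. The cause of the changes between fits was not tested. Depth limits Pla2g4a, Ltc4s and Alox5ap most, with at most 115, 124 and 100 reads in a mouse.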
